A study of Mus musculus with 24 samples.

Results

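The clustered protocadherins are cell-surface adhesion proteins encoded in the neighbouring alpha, beta and gamma gene arrays of mouse chromosome 18. The module described here holds 87 of the 55471 genes of the batch 1 table, 23 of which are also among the 13915 genes of the batch 2 table. Members were chosen by symbol and position: every gene whose symbol starts with Pcdha, Pcdhb or Pcdhg in the batch 2 table, and every batch 1 gene lying wholly in the interval from 36.9 Mb to just past the gamma constant exons (GRCm38). They comprise 14 alpha, 22 beta and 22 gamma protocadherins and 29 other genes of the interval. The module was proposed for Pcdhgb1, whose values in these libraries were already known. Its levels and fold changes are therefore a description. Pcdhgb1 stayed in the fits, but its p-values are not given and its calls are no support for a difference. Each count of called members that includes it is also given without it. Of the genes named below, Pcdhgb1, Pcdh10, Psd2, Cyfip2, Cystm1, Nrg2, Jup and Tubb3 are in the study's own table of changed genes.

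The cells are EO771, a mammary tumour line that arose spontaneously in a C57BL/6 mouse, carrying the retroviral vector pLNCX2 with tdTomato. X2 cells hold the vector alone, and X2-PDPN cells are X2 cells sorted for podoplanin (PDPN). CCR7 cells hold a Ccr7 cDNA and, according to the paper, were sorted as PDPN-negative. CCR7-PDPN cells are the PDPN-positive cells sorted from the same CCR7-expressing population. Batch 1 holds X2, CCR7 and CCR7-PDPN, batch 2 holds X2, X2-PDPN and CCR7-PDPN, and all comparisons of derivatives stay within a batch. Each group is 4 technical replicates of 1 population obtained, by the paper, without clonal selection, so errors and p-values measure only the spread among such replicates. The series record speaks of subclones instead, and for genes that single cells choose this would change what a group's isoform levels mean. Whether another population of the same kind would give these values was not tested. In bulk RNA, fewer expressing cells and less RNA per cell cannot be told apart.

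Each alpha or gamma protocadherin is made from its own variable exon, which encodes the extracellular and membrane-spanning parts, joined to constant exons that all genes of the array share and that encode the common cytoplasmic tail. Beta genes lack such a shared tail. The proteins bind their own kind on a facing cell, and the family is best known in neurons, where each cell uses its own combination of isoforms under the control of CTCF, cohesin and DNA methylation.

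This structure decides what the deposited counts can show. The constant exons of the gamma array measure 59, 89 and 1971 bases and lie in 21 or 22 of its 22 genes, and those of the alpha array lie in all 14 of its genes. Across the batch 1 table, 786 genes have no base free of another gene on their strand, and 52 of these (6.6%) have any count, at most 104 over the 12 libraries. Of 461 genes with bases free on their own strand but none free on either strand, 205 (44.5%) have a count, and of the 54224 others 50.6% do. Reads on exons shared on the same strand were thus nearly all left uncounted, neither split between genes nor counted for each of them. The 4 members without an unshared base (Gm42416, Gm37013, Gm37388 and Gm38182) are accordingly at 0. A gamma count below therefore stands for the bases of that gene that no other gene covers, which are its variable exon and, for some genes, bases found only in non-coding transcripts. The output of the constant exons was not measured.

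**Figure D1:**
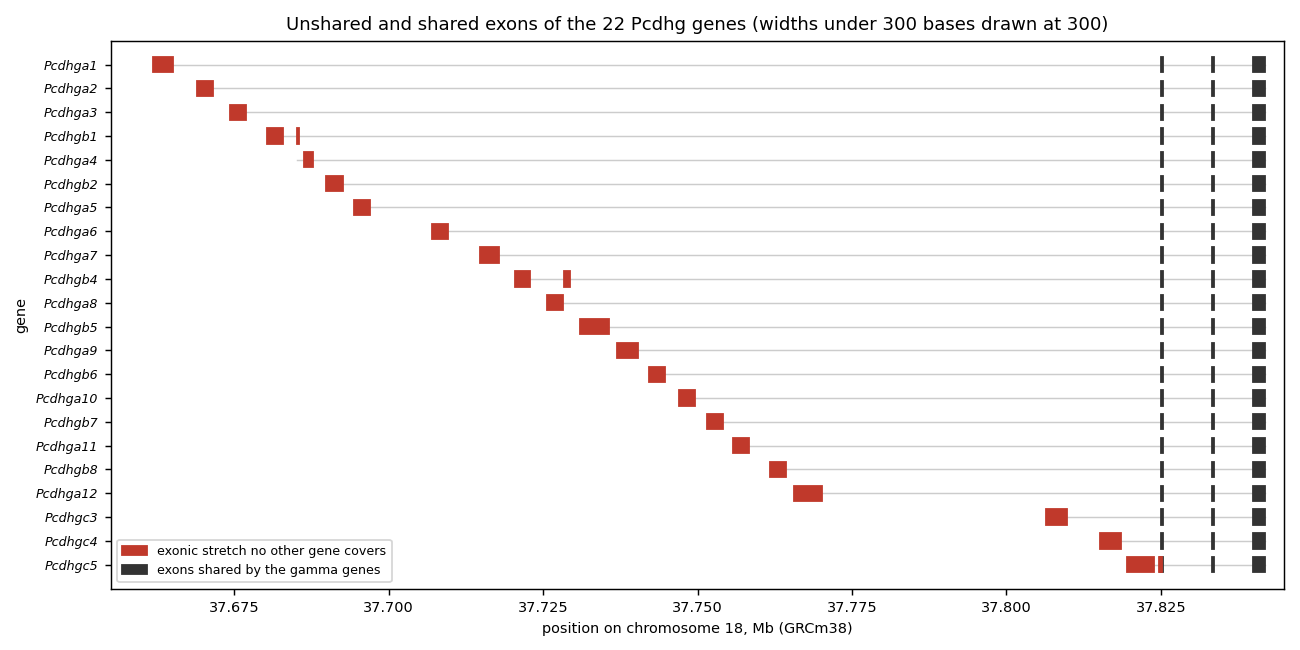
Exons of the 22 gamma protocadherin genes on chromosome 18. Each line is a gene; red, exonic stretches that no other gene covers on the same strand; black, the constant exons shared across the array, drawn in each line that reaches them although the first of them is annotated in 21 of the genes. Counts come from the red stretches. The red stretches of each gene after Pcdhga1 lie inside introns of the genes that start upstream of it. Those of Pcdhgc5, the last gene, lie inside introns of all the others.

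Many members have few counts or none. In batch 1, of the 83 members with an unshared base, 27 are at 0 in all 12 libraries, 40 never exceed 3 counts, and 25 reach at least 10 counts in some library. The alpha array is the quietest: its 14 genes together have between 0 and 5 counts in a library. All 22 beta genes together reach a mean of 5.9 counts scaled to the library total (CPM; SD 0.573, n = 4) in X2 cells of batch 1, and the 22 gamma genes reach 32.1 (SD 2.11). Enough counts for a test were found for 18 members in batch 1, 17 in batch 2 and 23 across both. A member can pass that filter through only the groups where it is high. This route favours members that differ, so the tested members do not stand for all members. Counts of calls among them are no support for a difference of the module. P-values are given only where all 4 libraries of the lower group (of the lowest of 4 groups, for the difference between PDPN differences) reach the level asked by the filter, and other calls are described by their values and log2 difference.

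**Figure D2:**
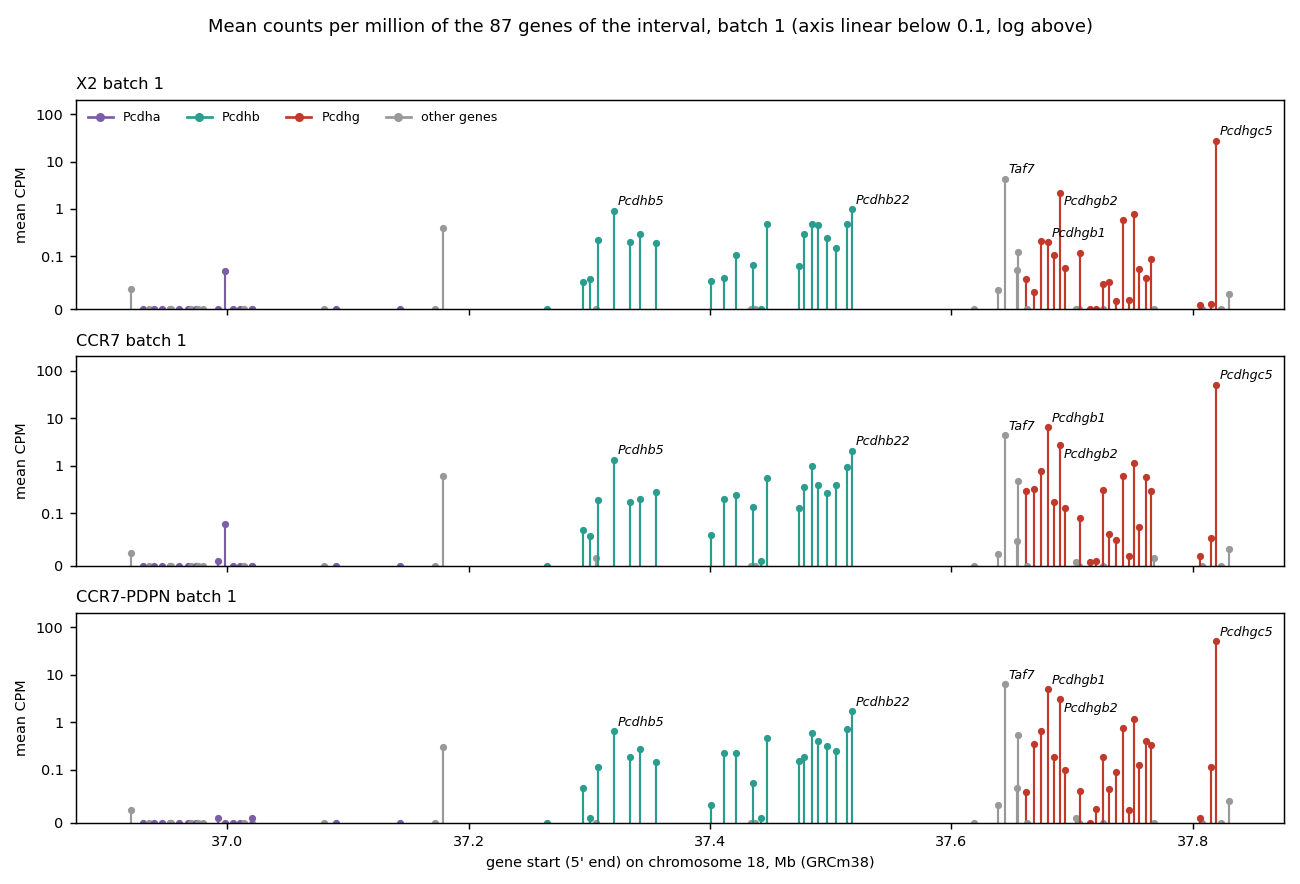
Mean CPM of the 87 genes of the interval in the 3 groups of batch 1, plotted at the 5′ end of each gene. Purple, alpha; green, beta; red, gamma protocadherins; grey, other genes. The axis is linear below 0.1 and logarithmic above it.

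The gamma signal is dominated by Pcdhgc5, a C-type isoform at the downstream end of the array. Of the summed counts of the 10 gamma genes that both tables list, it takes a mean of 86.7% in X2 cells of batch 1 (SD 1.16, n = 4) and 79.4% in CCR7 cells (SD 0.524). Per kilobase of unshared exon, Pcdhgc5 stands at 5.93 CPM in X2 cells of batch 1, above Taf7 at 1.31 and Pcdhgb2 at 0.793 CPM per kilobase. Only 2622 of its 4606 unshared bases belong to exons of coding transcripts, while the other 1984 are annotated only in other transcripts. The unshared bases of Pcdhgc5 also lie within an intron of the other gamma transcripts, and gene counts do not show where in them the reads fall. The same holds for each gamma gene after Pcdhga1, Pcdhgb1 included, with respect to the genes that start upstream of it.

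Pcdhgc5 was higher in all other derivatives than in X2. In batch 1 its levels were 28.5, 26.2, 28.7 and 25.9 CPM in X2, 46.0, 54.4, 51.5 and 49.7 in CCR7, and 51.7, 51.5, 50.0 and 51.2 in CCR7-PDPN. In batch 2 the X2 libraries stood at 28.7, 28.0, 26.4 and 27.9 CPM, the X2-PDPN libraries at 46.0, 45.1, 47.2 and 48.0, and the CCR7-PDPN libraries at 51.7, 49.8, 52.3 and 48.4. Every library of CCR7, CCR7-PDPN and X2-PDPN lies above every X2 library of its batch. The log2 differences from X2 were 0.88 for CCR7 (SE 0.05, adjusted p = 3.0e-12), 0.90 and 0.87 for CCR7-PDPN in batches 1 and 2 (adjusted p = 1.2e-12 and 1.3e-22), and 0.75 for X2-PDPN (SE 0.04, adjusted p = 7.9e-20). All 4 fall short of the log2 difference of 1 that, with an adjusted p under 0.05, is required here for a call, so no count of called members includes the clustered protocadherin with the most counts.

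Pcdhgb1, a gamma B isoform, was high in all groups with the Ccr7 construct. In batch 1 it had 5, 3, 6 and 9 counts in X2, 198, 187, 211 and 145 in CCR7, and 154, 166, 126 and 166 in CCR7-PDPN. In batch 2 the X2 libraries had 9, 5, 11 and 8 counts, the X2-PDPN libraries 2, 10, 4 and 2, and the CCR7-PDPN libraries 129, 159, 169 and 137. All libraries with the Ccr7 construct lie far above all libraries without it, and X2-PDPN overlaps X2, with a log2 difference of -0.94 (-1.59 without X2-PDPN replicate 2). Within batch 1 every CCR7 library lies above every CCR7-PDPN library (log2 -0.33). Its fitted level was 30.9 times that of X2 in CCR7 and 24.6 and 18.4 times in CCR7-PDPN of batches 1 and 2. Mean levels were 6.38 CPM in CCR7 (SD 0.185), 5.06 for CCR7-PDPN of batch 1 (SD 0.521) and 0.138 for X2-PDPN (SD 0.0983). Of the summed counts of the same 10 gamma genes it takes a mean of 0.634% in X2 and 10.1% in CCR7 of batch 1. With 1 population per derivative, the Ccr7 cDNA and the history of the population cannot be told apart.

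**Figure D3:**
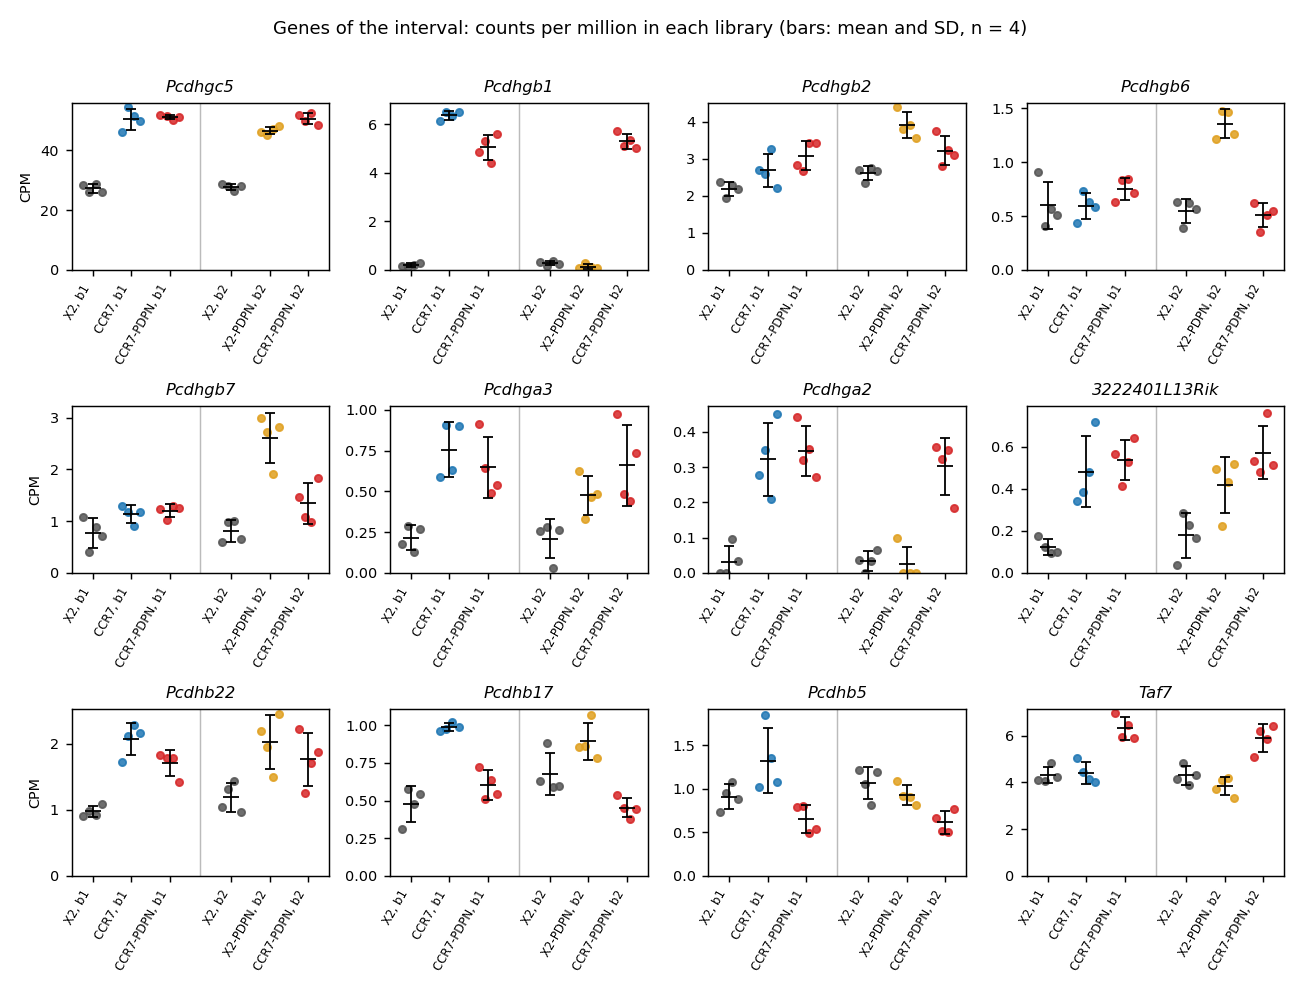
CPM of 12 genes of the interval in each library. Points, single libraries; bars, mean and SD of the 4 libraries; the grey line separates batch 1 (left) from batch 2 (right). Axes start at 0 and differ between panels. The batch 2 table was filtered by the authors, so CPM is relative to the total of each table.

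In CCR7 against X2 of batch 1, 8 members were called (7 other than Pcdhgb1), where 6.48% of the 13261 genes tested were called. All 8 were higher, against 3.30% of genes called higher and 3.18% lower. They lie in the beta array (Pcdhb17, Pcdhb20 and Pcdhb22) and the gamma array (Pcdhga2, Pcdhga3, Pcdhgb1 and Pcdhgb8), with the long non-coding RNA gene 3222401L13Rik just upstream of the gamma array. Only Pcdhb17 and Pcdhb22 reached the level asked by the filter in any X2 library. Pcdhb22 did so in all 4 and Pcdhb17 in 3, so 1 of the 8 calls is of a member that passes the filter through X2 alone.

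Among the beta isoforms, Pcdhb22 had 0.908, 0.988, 0.918 and 1.09 CPM in X2 and 1.73, 2.12, 2.28 and 2.16 in CCR7. The groups do not overlap, and the log2 difference was 1.08 (SE 0.16, adjusted p = 9.4e-06). Pcdhb17 had 0.314, 0.576, 0.475 and 0.545 CPM in X2 and 0.96, 0.975, 1.02 and 0.99 in CCR7, again without overlap (log2 1.05). Without X2 replicate 1 its log2 difference was 0.89 and the call was lost. Pcdhb20 rests on few reads, 3 to 6 counts in X2 against 8 to 15 in CCR7 (log2 1.34), and lost its call without X2 replicate 3 or replicate 4. Pcdhb21, which shares 455 bases with Pcdhb22, had a log2 difference of 0.89 and was called only without X2 replicate 3 (1.08).

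The long non-coding gene 3222401L13Rik had 0.175, 0.124, 0.0949 and 0.102 CPM in X2 of batch 1 and 0.341, 0.383, 0.481 and 0.72 in CCR7, without overlap (log2 1.89). The gamma genes called besides Pcdhgb1 are also expressed at low levels. Pcdhga3 had 0.175, 0.288, 0.127 and 0.272 CPM in X2 and 0.588, 0.905, 0.631 and 0.9 in CCR7. The groups do not overlap, and the log2 difference was 1.79. Pcdhgb8, annotated as a polymorphic pseudogene, had 1, 1, 4 and 1 counts in X2 and 19, 17, 23 and 10 in CCR7. This is a ratio of 9.5 after scaling to library totals (log2 3.18 in the fit). Pcdhga2 had 0, 0, 3 and 1 counts in X2 and 9, 10, 7 and 10 in CCR7, a ratio of 8.68 (log2 3.00 in the fit). Both genes were near the floor of detection in X2, and every CCR7 library lies above every X2 library. Replicate 3 holds 3 of the 4 X2 counts of Pcdhga2 and 4 of the 7 of Pcdhgb8, so both ratios depend strongly on that library. The genes 3222401L13Rik, Pcdhga1, Pcdhga2, Pcdhga3 and Pcdhgb1 follow one another along the chromosome. Of these, Pcdhga1 did not pass the filter and was called, in CCR7 against X2 and in CCR7-PDPN against CCR7, only when the filter was left out. It had 1, 0, 4 and 2 counts in X2, 12, 12, 10 and 2 in CCR7, and 2, 1, 3 and 1 in CCR7-PDPN. Pcdhga1 was picked out after its values were seen.

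CCR7-PDPN cells were compared with X2 in both batches. In batch 1, 5 members were called (4 other than Pcdhgb1), where 9.45% of genes were called. All 5 were higher, against 4.09% of genes called higher and 5.36% lower: 3222401L13Rik, Pcdhga2, Pcdhga3, Pcdhgb1 and Pcdhgb8. For 0 of these 5 did an X2 library reach the filter level, and with CCR7 out of the fit Pcdhga2 and Pcdhgb8 were no longer tested. In CCR7-PDPN of batch 1, Pcdhga2 had 14, 10, 10 and 8 counts (log2 3.16) and Pcdhgb8 had 9, 8, 15 and 16 (log2 2.61), against the X2 counts given above. In batch 2, 3 members were called (2 other than Pcdhgb1), where 9.63% of 13314 genes were called. All 3 were higher, against 3.96% of genes called higher and 5.67% lower: 3222401L13Rik, Pcdhga3 and Pcdhgb1, of which only Pcdhgb1 reached the filter level in an X2 library, and 0 passed the filter through X2 alone.

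The levels of 3222401L13Rik in CCR7-PDPN of batch 1 were 0.567, 0.416, 0.528 and 0.643 CPM (log2 2.09 from X2). In batch 2 it had 0.037, 0.283, 0.229 and 0.166 CPM in X2 and 0.534, 0.482, 0.759 and 0.515 in CCR7-PDPN (log2 1.65). In both batches every CCR7-PDPN library lies above every X2 library. Pcdhga3 had 0.914, 0.641, 0.493 and 0.542 CPM in CCR7-PDPN of batch 1 (log2 1.61 from X2). In batch 2 it had 0.259, 0.283, 0.0327 and 0.265 CPM in X2 and 0.978, 0.482, 0.442 and 0.736 in CCR7-PDPN (log2 1.60), without overlap in either batch. Pcdhgb8 in batch 2 had 7, 5, 1 and 7 counts in X2 and 4, 17, 9 and 8 in CCR7-PDPN, groups that overlap, and Pcdhga2 had 1, 0, 1 and 2 counts in X2 and 8, 10, 11 and 5 in CCR7-PDPN. Neither of them passed the filter in batch 2.

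Taf7, which encodes a subunit of the general transcription factor TFIID and lies between the beta and gamma arrays, stood highest in CCR7-PDPN cells. It had 4.12, 4.08, 4.84 and 4.22 CPM in X2 of batch 1, 5.05, 4.46, 4.15 and 4.01 in CCR7, and 6.97, 5.96, 6.44 and 5.89 in CCR7-PDPN. All CCR7-PDPN libraries lie above those of the other groups. The log2 difference from X2 was 0.54 in batch 1 (adjusted p = 5.1e-05) and 0.46 in batch 2 (adjusted p = 1.0e-04), under the size needed for a call.

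CCR7-PDPN and CCR7 are the PDPN-positive and PDPN-negative sorts of the same CCR7-expressing cells. In CCR7-PDPN against CCR7, 2 of the 18 tested members were called, where 3.27% of genes were called. Both were lower, against 0.664% of genes called higher and 2.60% lower. Pcdhb5, a beta isoform, had 1.02, 1.85, 1.35 and 1.08 CPM in CCR7 and 0.788, 0.801, 0.493 and 0.542 in CCR7-PDPN, without overlap (log2 -1.0, SE 0.23, adjusted p = 0.0016). Gm10544, a non-coding transcript that overlaps the alpha constant region, had 23, 19, 26 and 6 counts in CCR7 and 13, 8, 14 and 2 in CCR7-PDPN, groups that overlap (log2 -1.03), and did not pass the filter through CCR7-PDPN alone. Both calls are marginal: that of Pcdhb5 was lost without CCR7 replicate 2 (log2 -0.81) or 3 (-1.0) or CCR7-PDPN replicate 3 (-0.89) or 4 (-0.92), and also without the filter (-1.0) and with the replicate block (-0.99). That of Gm10544 was lost without CCR7 replicate 1 (-0.96), 2 (-1.01) or 3 (-0.89) or CCR7-PDPN replicate 2 (-0.95) or 4 (-0.71). It was also lost with the replicate block (-1.0) and with only the 2 groups compared (-1.03). By edgeR, 0 members are called without CCR7 replicate 2 (5 at an unadjusted p under 0.05, 4 other than Pcdhgb1), CCR7 replicate 3 (7, or 6) or CCR7-PDPN replicate 4 (5, or 4), and DESeq2 on all libraries called 2. Pcdhgc5 differed by a log2 of 0.02 (SE 0.05), and Pcdhgb1 by -0.33.

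Cells sorted for PDPN without the Ccr7 construct showed other gamma B isoforms higher. In X2-PDPN against X2, 4 members were called, where 5.05% of genes were called. All 4 were higher, against 3.51% of genes called higher and 1.55% lower: Pcdhgb6, Pcdhgb7, Pcdhga3 and 3222401L13Rik. Pcdhgb7 had 0.593, 0.99, 1.01 and 0.662 CPM in X2 and 2.99, 2.73, 1.91 and 2.82 in X2-PDPN (log2 1.67, SE 0.20, adjusted p = 2.1e-09). Pcdhgb6 had 0.63, 0.389, 0.62 and 0.563 CPM in X2 and 1.22, 1.48, 1.47 and 1.26 in X2-PDPN (log2 1.30, SE 0.23, adjusted p = 3.8e-06). For both genes every X2-PDPN library lies above every X2 library.

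The other pair of calls in X2-PDPN is less firm, and neither gene reached the filter level in an X2 library. Pcdhga3 had 7, 8, 1 and 8 counts in X2 and 19, 12, 14 and 13 in X2-PDPN (log2 1.17), and was not called without X2 replicate 3 (log2 0.80). The 3222401L13Rik transcript had 1, 8, 7 and 5 counts in X2 and 15, 8, 13 and 14 in X2-PDPN, groups whose CPM values overlap (log2 1.15), and was not called without X2 replicate 1 (log2 0.85). With only X2-PDPN and X2 in the fit, neither gene passed the filter, so neither was tested. Pcdhgb2, next to Pcdhgb1 in level per kilobase among the gamma B genes of CCR7 cells, had a log2 difference of 0.58 (SE 0.12, adjusted p = 5.6e-05), under the size needed for a call.

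With PDPN high on both sides, CCR7-PDPN was compared with X2-PDPN in batch 2. Here 5 members were called (4 other than Pcdhgb1), where 9.16% of genes were called, 2.76% higher and 6.40% lower. Pcdhgb1 and Gm10544 were higher, and Pcdhb14, Pcdhb19 and Pcdhgb6 were lower. In the lower group, only Pcdhb14 and Pcdhgb6 reached the filter level in any library, and only Pcdhgb6 in all 4. Pcdhgb6 had 0.623, 0.354, 0.506 and 0.552 CPM in CCR7-PDPN, below every X2-PDPN library given above (log2 -1.44, SE 0.23, adjusted p = 7.7e-07). Pcdhb19, a beta isoform, had 4, 6, 5 and 6 counts in CCR7-PDPN and 16, 20, 13 and 13 in X2-PDPN, without overlap (log2 -1.41).

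The beta isoform Pcdhb14 had 7, 10, 17 and 9 counts in CCR7-PDPN and 24, 27, 15 and 31 in X2-PDPN, groups that overlap (log2 -1.04). Its call was lost without CCR7-PDPN replicate 1 (-0.97), 2 (-0.96) or 4 (-0.98) or X2-PDPN replicate 4 (-0.84). That of Gm10544, with 10, 8, 13 and 10 counts in CCR7-PDPN and 6, 7, 2 and 4 in X2-PDPN (log2 1.22), was lost without X2-PDPN replicate 3 (0.99). Pcdhb17 and Pcdhgb7, with log2 differences of -1.0 (adjusted p = 8.4e-04) and -0.98 (adjusted p = 1.3e-05), fell just short of a call. Pcdhb17 was called in 5 and Pcdhgb7 in 3 of the 8 fits that each left out 1 library.

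Whether the PDPN difference depends on CCR7 was tested as CCR7-PDPN minus CCR7 in batch 1 against X2-PDPN minus X2 in batch 2. Since CCR7 was sequenced in batch 1 only and X2-PDPN in batch 2 only, dependence on CCR7 and on batch cannot be told apart. For this difference 7 members were called, where 5.44% of 13690 genes were called. All 7 were lower with CCR7 than without it, against 0.964% of genes called higher and 4.48% lower. The most abundant of them per kilobase in X2-PDPN is Pcdhgb7, whose PDPN difference was 0.08 with CCR7 and 1.67 without (difference of log2 values -1.59, SE 0.31, adjusted p = 7.8e-05). For Pcdhb17 the value was -1.11 (SE 0.30, adjusted p = 0.0028), and no left-out library removed either call. The difference of CCR7-PDPN from X2, measured in both batches, was 0.34 in batch 1 and -0.59 in batch 2 for Pcdhb17. It thus changed sign between batches for this gene. For Pcdhgb7 it was 0.61 and 0.69, and none of these was called.

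The other 5 calls were each lost without some single libraries. That of Pcdhb22 (-1.03, adjusted p = 6.6e-04) was kept in 10 of the 16 fits that each left out 1 library, between -1.15 and -0.94. Pcdhga3 (-1.36) kept its call in 14 of 16, between -1.58 and -0.99, Pcdhga8 (-2.17) in 10, between -2.90 and -1.80, Pcdhb8 (-1.72) in 9, between -2.06 and -1.45, and Pcdhb21 (-1.0) in 8, between -1.21 and -0.74. With the replicate block, Pcdhb21 also lost its call (-1.0). Few reads underlie these calls. Pcdhga8 had 10, 10, 10 and 6 counts in CCR7 and 1, 7, 12 and 2 in CCR7-PDPN of batch 1. The batch 2 counts were 0, 6, 4 and 2 for X2 and 3, 10, 10 and 12 for X2-PDPN. Pcdhb8 had 6, 6, 13 and 7 counts in CCR7, 3, 7, 5 and 3 in CCR7-PDPN, 3, 6, 2 and 8 in X2 and 8, 13, 11 and 5 in X2-PDPN. For Pcdhga8, Pcdhb8 and Pcdhga3 the lowest of the 4 groups had 0 libraries at the filter level. Pcdhb21 had 25, 23, 34 and 26 counts in CCR7, 32, 25, 24 and 8 in CCR7-PDPN, 13, 18, 19 and 11 in X2 and 30, 25, 29 and 19 in X2-PDPN. The count of 7 fell to 3 without CCR7-PDPN replicate 4 of batch 1, and to 4 without X2 replicate 1, X2 replicate 4 or X2-PDPN replicate 3 of batch 2. Pcdhgc5, short of a call, had a value of -0.72 (SE 0.06, adjusted p = 6.0e-12). For Pcdhgb6, called higher in X2-PDPN only, the value was -0.95 (adjusted p = 0.02), and 6 of the 16 fits called it.

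Summed over the 10 gamma genes that both tables list, levels were 31.5 CPM in X2 (SD 1.92), 63.5 in CCR7 (SD 4.05) and 63.1 in CCR7-PDPN (SD 0.633) of batch 1. In batch 2 the X2 sum was 32.6 CPM (SD 0.956), that of X2-PDPN 55.8 (SD 1.0) and that of CCR7-PDPN 62.7 (SD 2.1). Without Pcdhgc5 the sums were 4.21, 13.1 and 12.0 CPM in X2, CCR7 and CCR7-PDPN of batch 1, and 4.86, 9.26 and 12.2 for the batch 2 groups X2, X2-PDPN and CCR7-PDPN. The summed gamma counts thus stood higher in all derivatives than in X2, with Pcdhgc5 carrying most of the sum. Both sets of sums include Pcdhgb1, whose mean share of the counts of these 10 genes was 0.634% for X2 of batch 1. Its share reached 10.1% for CCR7 and 8.01% for CCR7-PDPN of that batch, and 8.46% for CCR7-PDPN of batch 2. X2-PDPN stood at 0.25%, against 0.871% for X2 of batch 2. Part of the higher sums with the Ccr7 construct is therefore Pcdhgb1 itself. No sum without Pcdhgb1 is given, so these sums describe the libraries and are no support for a difference of the array. The beta sums behaved otherwise: over the 10 beta genes in both tables they were 4.83 CPM in X2, 7.37 in CCR7 and 5.49 in CCR7-PDPN of batch 1, while the batch 2 sums were 5.66 for X2, 7.76 for X2-PDPN and 5.46 for CCR7-PDPN. CCR7-PDPN thus lay close to X2 for the beta array in batch 2. In batch 1 its libraries ran from 4.1 to 6.19 CPM, against 4.16 to 5.19 in X2. Replicate 4 was the lowest of CCR7-PDPN there, with 121 counts against 176 to 191 in the others. These sums were not tested, and CPM was set within each table.

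Genes beside the clusters were followed over 1 Mb on either side. Of 63 neighbours, 33 were tested in each of the 6 comparisons, and their median log2 difference was -0.21 in CCR7-PDPN against CCR7, -0.16 and -0.19 in CCR7-PDPN against X2 of batches 1 and 2, -0.20 in X2-PDPN against X2, 0.00 in CCR7 against X2 and 0.05 in CCR7-PDPN against X2-PDPN, with medians over all genes at 0.00. In CCR7 against X2, 3 neighbours were called higher, where 3.30% of all genes were: Psd2, an exchange factor for Arf GTPases (log2 1.90, SE 0.09), AC133601.1 (1.33) and Gm6542 (1.31). AC133601.1 had 7 to 19 counts in X2 and 18 to 36 in CCR7, and Gm6542 had 3 to 11 and 14 to 17. In X2-PDPN against X2, 2 were called lower, where 1.55% of all genes were: Nrg2, a neuregulin growth factor (log2 -1.61, SE 0.10), and Cystm1 (-1.44, SE 0.07). In CCR7-PDPN against X2, where 9.45% and 9.63% of all genes were called, the calls were Psd2 (1.47 and 1.68 in batches 1 and 2), AC133601.1 (1.43 and 1.61) and, in batch 1, Gm6542 (1.29) as higher, and Cystm1 (-1.03 and -1.20) as lower. In CCR7-PDPN, AC133601.1 had 22 to 36 counts in batch 1 and 27 to 36 in batch 2 (8 to 13 in X2 of batch 2), and Gm6542 had 13 to 23 in batch 1. Against X2-PDPN, Psd2 (log2 1.90, SE 0.12) and AC133601.1 (1.98, with 5 to 14 counts in X2-PDPN) were higher in CCR7-PDPN. So few calls among 33 genes are no result about the neighbours as a group. Ndufa2, a subunit of respiratory complex I and the most abundant neighbour per kilobase, was called in no comparison. Across batches, the PDPN difference was higher with CCR7 for Cystm1 (1.07) and lower for Arap3, a GTPase-activating protein (-1.01).

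All 22 listed factors that select and silence protocadherin promoters were tested. Only Tet1, an enzyme that oxidises methylated cytosine, was called, and with 3.27% to 9.63% of all genes called in a comparison this count is no result about the list. It was higher in X2-PDPN than in X2 (log2 1.68) and lower in CCR7-PDPN than in X2-PDPN (log2 -1.35), and its PDPN difference was lower with CCR7 (-2.66), with 13 to 43 counts in X2-PDPN, 5 to 9 in X2 of batch 2 and 6 to 12 for CCR7-PDPN. In batch 1 its CCR7-PDPN libraries had 4 to 13 counts and the CCR7 libraries 10 to 19. Ctcf, which encodes the insulator protein, was above X2 by a log2 of 0.31 in CCR7 (SE 0.03, adjusted p = 4.2e-08) and below it by -0.16 in X2-PDPN (SE 0.03). Rad21, a cohesin subunit and the most abundant regulator per kilobase, had log2 differences from X2 of -0.11 in CCR7 and 0.25 in X2-PDPN. Smchd1, a silencing factor, had -0.02 and 0.19, and the methyltransferase gene Dnmt3b had 0.14 and 0.30 for the same comparisons.

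Of 12 non-clustered protocadherins, 2 had enough counts for a test. Pcdh1, the more abundant per kilobase, was called in no comparison, with log2 differences between -0.42 and 0.24 over the 6 of them. Pcdh10 had 17 to 28 counts in CCR7 libraries against 93 to 104 in X2 (log2 -2.21, SE 0.16). It was higher in CCR7-PDPN than in CCR7 (log2 2.46, SE 0.15) and in X2-PDPN than in X2 (1.34, SE 0.09). This PDPN difference was larger with CCR7 (1.12, SE 0.18). Pcdh10 was lower in CCR7-PDPN when set against X2-PDPN (-1.04, SE 0.09).

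Of 23 intracellular and membrane partners, 20 were tested and Cyfip2 was called, a count that beside the same shares of all genes is no result about the list. Cyfip2, a subunit of the WAVE complex that binds protocadherin tails and drives actin branching, was lower in CCR7-PDPN cells than in all others, by a log2 of -3.21 against CCR7 (SE 0.11, adjusted p = 5.2e-15) and -2.69 against X2-PDPN (SE 0.11), and its PDPN difference depended on CCR7 or batch (-3.28, SE 0.14). Brk1, another WAVE subunit and the most abundant partner per kilobase, had log2 differences between -0.20 and 0.41 over the 6 comparisons. Marcks is listed at 0 in all groups of batch 1.

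Of 11 classical cadherins and catenins, 7 were tested. Jup, which encodes plakoglobin, was higher in X2-PDPN than in X2 (log2 1.04, SE 0.05). Cdh5, the endothelial cadherin, was lowest in X2-PDPN (log2 -1.48 against X2, and 2.44 for CCR7-PDPN over X2-PDPN), with 1 to 6 counts there against 4 to 12 in X2 and 8 to 17 in CCR7-PDPN of batch 2, and a PDPN difference that was higher with CCR7 (1.68). Ctnnb1, which encodes beta-catenin and was the most abundant of the list per kilobase, had a log2 difference from X2 of 0.51 in CCR7 and was called in no comparison.

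Marker genes of several cell types were read in the same libraries. Of 7 mammary carcinoma markers, Vim (a mean of 2500.0 CPM in X2 of batch 1) and the keratin gene Krt8 (230.0 CPM) were abundant, whereas Krt18, Krt19, Epcam and Cdh1, defining epithelial genes, had at most 9 counts in any batch 1 library. Of the 3 tested, Krt7 was called lower in CCR7-PDPN than in X2 of batch 1 (log2 -1.25) and not of batch 2 (-0.90), and Krt8 (0.37 and 0.41) and Vim (0.06 and 0.06) had no call there. Of 5 neuronal markers, Tubb3 alone was tested, and Rbfox3, Snap25, Syt1 and Map2 were absent from the batch 2 table. Tubb3 makes up nearly all of the summed neuronal markers, 37.2 CPM in X2, 30.5 in CCR7 and 18.1 in CCR7-PDPN of batch 1, and was called lower in CCR7-PDPN against X2 of both batches (log2 -1.04 and -1.02). Of 3 fibroblast markers, Pdgfra was at 156.0 CPM in X2, with Dcn and Lum at 3 counts or fewer. Of 3 endothelial markers, Pecam1 and Cdh5 were tested, Pecam1 was called higher (log2 1.14, 10 to 18 counts against 4 to 9) and Cdh5 lower (-1.48) in X2-PDPN against X2, and the sum stayed under 1 CPM in every library.

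Of 5 leukocyte markers, only Cd79a, a component of the B cell receptor, was tested, and Ptprc, Cd3e, Itgam and Adgre1 were absent from the batch 2 table. Cd79a rose with the same derivatives as Pcdhgc5: the summed leukocyte markers had means of 0.596 CPM in X2, 2.35 in CCR7 and 3.33 in CCR7-PDPN of batch 1, while in batch 2 the means were 0.573 for X2, 1.93 for X2-PDPN and 2.97 for CCR7-PDPN. The PDPN difference of Cd79a was lower with CCR7 than without it (-1.23, SE 0.22, adjusted p = 2.1e-05). Ptprc, which defines leukocytes, had at most 4 counts in any batch 1 library. By the paper, this is a line kept in culture, sorting enriched the cells with tdTomato and CCR7, and G418 was used to select them. The source of the Cd79a counts was not tested.

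Several limits bear on these results. Counts come from unshared exons only, so the output of the constant exons and the full length of each transcript were not measured. Most members have few reads, and calls at such depth often depend on 1 library. The replicates are technical, with 1 population per derivative and batch, so spread between independent populations is unknown. CCR7 and X2-PDPN never share a batch, so the comparison of PDPN differences also compares batches. Neither protein nor promoter methylation was measured. The module was selected on Pcdhgb1 with its values known, and the other members were not chosen independently of these data.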

How the data were processed

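The authors deposited raw counts per Ensembl gene for both batches, from single-end 75 bp reads mapped to GRCm38, with the batch 2 table already filtered by a rule they do not state. Library totals of the deposited tables ran from 22275468 to 33395418 counts in batch 1 and 22788542 to 35721027 in batch 2. Genes passing filterByExpr were normalized by TMM and tested with edgeR 4.0.16 (quasi-likelihood, Benjamini-Hochberg over all genes tested, called at adjusted p under 0.05 and absolute log2 fold change above 1), 1 fit per batch and 1 over both. The code was tried on simulated counts first. Unshared exon lengths came from exon coordinates in the batch 1 table. Alternatives were DESeq2 1.42.0, RLE factors, no filter, the compared groups alone, the replicate number as a block and leaving out each library. Named members have a mean of at least 1 CPM in a group or a call. List genes are named for a call or as the most abundant, besides Ctcf, Rad21, Smchd1 and Dnmt3b. Members and lists were chosen with earlier results of these data known. Pcdhgb1 stayed in the fits, but its p-values are not given and its calls are no support.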

Additional observations from a re-analysis of the deposited data

Results flagged for a closer look

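A library far from the other 3 of its group was found in 15 of 231 groups of values examined, where chance flags about 1 in 20. Among members, the values apart from their group were Gm10544 at 0.397 CPM in X2 batch 2 replicate 4, Pcdhb14 at 0.537 in CCR7-PDPN batch 2 replicate 3, Pcdhb17 at 0.884 in X2 batch 2 replicate 2, and Pcdhb22 at 1.42 in CCR7-PDPN batch 1 replicate 4. Further ones were Pcdhga2 at 0.0987 CPM in X2-PDPN batch 2 replicate 1 (3 counts against 0 in the others), Pcdhga3 at 0.0327 in X2 batch 2 replicate 3 (1 count against 7 or 8), Pcdhgb2 at 2.33 in X2 batch 2 replicate 2 and Pcdhgb8 at 0.127 in X2 batch 1 replicate 3. Among other genes they were Brk1 at 109.0 CPM in X2-PDPN batch 2 replicate 1, Jup at 23.1 in X2 batch 2 replicate 3, Psd2 at 4.52 in X2 batch 2 replicate 2, and Ndufa2 at 50.4 in X2 batch 2 replicate 1. Gm6542 stood apart at 0.765 CPM in CCR7 batch 1 replicate 4 and 0.737 in CCR7-PDPN batch 1 replicate 2, and AC133601.1 at 0.601 in X2 batch 1 replicate 3. As a whole library, CCR7 batch 1 replicate 1 stood furthest from its group. Its chi-square per degree of freedom was 20.4, 16 and 12.3 against CCR7 replicates 2, 3 and 4. Pairs within the other groups gave 1.99 to 6.59. Without this replicate, 9 members were called in CCR7 against X2 (8 other than Pcdhgb1), with Pcdhga12 gained and none lost.

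The PDPN difference itself differed with and without CCR7, by the test of that difference, for Pcdhb8 (-1.72), Pcdhb17 (-1.11), Pcdhb21 (-1.0), Pcdhb22 (-1.03), Pcdhga3 (-1.36), Pcdhga8 (-2.17) and Pcdhgb7 (-1.59). On the lists the same held for Tet1 (-2.66), Pcdh10 (1.12), Cyfip2 (-3.28), Cdh5 (1.68), Cystm1 (1.07) and Arap3 (-1.01), and among the markers for Cd79a (-1.23). These set cells of batch 1 against cells of batch 2, and the part of the batch cannot be told apart.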

How the results depend on the processing

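Counts of called members were the same under DESeq2 and RLE factors in all 6 comparisons. With only the 2 groups compared in the fit, the counts were 1 in CCR7-PDPN against CCR7, 5 in CCR7 against X2 (4 other than Pcdhgb1), 3 in CCR7-PDPN against X2 of batch 1 (2 other than Pcdhgb1), 2 in X2-PDPN against X2, 3 in CCR7-PDPN against X2 of batch 2 (2 other than Pcdhgb1) and 4 in CCR7-PDPN against X2-PDPN (3 other than Pcdhgb1); of the 9 calls missing over all 6 comparisons, 8 are of members that no longer passed the filter. Without the filter they were 3 in CCR7-PDPN against CCR7 (Pcdha9 and Pcdhga1 gained, Pcdhb5 lost), 11 in CCR7 against X2, 10 and 5 in CCR7-PDPN against X2 of batches 1 and 2, 6 in X2-PDPN against X2 and 6 in CCR7-PDPN against X2-PDPN (3, 10, 9, 4, 6 and 5 other than Pcdhgb1), as more genes were tested. At adjusted p alone they were 5 in CCR7-PDPN against CCR7, 11 in CCR7 against X2, 10 and 11 in CCR7-PDPN against X2 of batches 1 and 2, 8 in X2-PDPN against X2 and 12 in CCR7-PDPN against X2-PDPN (4, 10, 9, 10, 8 and 11 other than Pcdhgb1), and 11 for the difference between PDPN differences. Leaving out 1 library gave 0 to 3 calls in CCR7-PDPN against CCR7 and 3 to 8 for the PDPN difference with CCR7 minus that without.

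The replicate number as a block left 0 calls in CCR7-PDPN against CCR7 with edgeR (5 members at an unadjusted p under 0.05, 4 other than Pcdhgb1, and DESeq2 without the block called 2), 6 for the difference between PDPN differences, and the count unchanged elsewhere. Same-numbered libraries correlated between -0.12 and 0.106, and 6 of 24 correlated best with their own number, so the numbers do not pair the libraries.

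Besides Pcdhgb1, 30 of the 121 results of tested members were called. Of 425 settings tried on these, 364 kept the call, 53 lost it (48 by leaving out 1 library), 8 left the member untested, all with only the 2 groups compared, and 0 changed direction. Of 1258 settings on the 91 results that were not called, 21 gained a call, each by leaving out 1 library: among them Pcdhb20 in CCR7-PDPN against CCR7 without CCR7-PDPN replicate 1 (-1.18), Pcdhb14 in CCR7-PDPN against X2 of batch 2 without CCR7-PDPN replicate 3 (-1.09), Pcdhb18 in CCR7-PDPN against X2-PDPN (2 fits) and Pcdhb16 in the difference between PDPN differences (2 fits). Another 35 changed sign and none of these was called, 34 by leaving out 1 library and 1 under the block; the cause was not tested. Members untested in the fit of all libraries were called 15 times without the filter and 9 times with 1 library left out. For the named members with a changed sign, the leave-one-out ranges were, in CCR7-PDPN against CCR7, -0.49 to 0.18 (Pcdhb14), -0.01 to 0.33 (Pcdhga2), -0.03 to 0.16 (Pcdhgb7) and -0.02 to 0.06 (Pcdhgc5). In CCR7 against X2 they were -0.26 to 0.50 (Pcdhb14), -0.04 to 0.10 (Taf7) and -0.15 to 0.23 (Pcdhgb6). For Pcdhb14 they were -0.34 to 0.28 in CCR7-PDPN against X2 of batch 1 and -0.01 to 0.36 in X2-PDPN against X2. The rest were -0.27 to 0.01 (Pcdhgb6, CCR7-PDPN against X2 of batch 2), -0.30 to 0.12 (Pcdhb21, CCR7-PDPN against X2-PDPN) and -0.42 to 0.20 (Gm10544, the difference between PDPN differences).

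Depth limits the module: 3 counts correspond to 0.084 to 0.135 CPM, and 44 of the 87 members never exceed 3 counts in batch 1. Levels per kilobase use unshared length, and with full exonic length the gamma values are lower by construction.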
